A study of Mus musculus with 6 samples.

Results

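The transcript levels of 10 genes were followed through the LPS response of macrophages with and without metformin. They were the transcription factor genes Egr1, Egr2 and Egr3 with the gene of their corepressor, Nab2, the nuclear receptor genes Nr4a1, Nr4a2 and Nr4a3, and the immediate early response genes Ier2, Ier3 and Ier5. The genes were listed by symbol and are 10 of the 54532 genes in the data. The cells were BMDMs, macrophages grown from the bone marrow of wild-type C57BL/6 mice in medium conditioned by L929 cells. They were left untreated (Untr), stimulated with LPS (100 ng/ml) for 2 h (LPS), or pretreated for 6 h with metformin (5 mM) before that LPS stimulation (Met + LPS). LPS is a cell wall component of Gram-negative bacteria that macrophages sense through TLR4, and metformin is a drug used in type 2 diabetes. Each group had 2 libraries, replicates A and B, and no group received metformin without LPS. The cells were described as seeded in duplicate, so that the p-values measure the spread between libraries, which may be technical.

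Immediate-early genes are transcribed within minutes of a stimulus without new protein synthesis, and most of their transcripts are short-lived. ERK signaling through serum response factor and its partners, the factor CREB, and in macrophages NF-kappaB drive many of them. Egr proteins are zinc finger factors that bind GC-rich sites, and Nab2 binds Egr proteins and represses their activity. Nr4a proteins are orphan nuclear receptors, whose genes carry CREB binding sites and which act in macrophages as modulators of inflammation. The Ier name covers unrelated genes. Ier3 is an NF-kappaB target linked to cell survival, whereas Ier2 and Ier5 encode related nuclear proteins.

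Levels are given as TPM, a unit in which reads are divided by gene length and every library has an equal sum. The reads recovered from the TPM values numbered 25457016 to 30762754 per library. All 7 macrophage markers examined (such as Adgre1 and Csf1r) were at 1 TPM or more in every library. Their summed level was 43710 to 45600 TPM in Untr, 34526 to 35264 TPM in LPS and 28763 to 28884 TPM in Met + LPS. Lyz2 made up most of each sum (33981 and 35844 TPM in Untr, 26974 and 26696 in LPS, 21203 and 21381 in Met + LPS). Adgre1 was higher in LPS (1750 and 1684 TPM) than in Untr (1510 and 1575 TPM). Fcgr1 overlapped between these 2 groups, and the other markers were lower in LPS. The 20 markers of other bone marrow cells summed to 23.4 to 23.6, 11.6 to 17.0 and 23.1 to 24.1 TPM in the same order, with 16, 16 and 17 of the 20 under 1 TPM and 4, 7 and 5 at 0. Most of that sum came from Elane, a gene of neutrophil precursors. In bulk libraries, fewer cells of a type and less RNA per cell cannot be told apart. The limma test was applied to log2(TPM + 1) of the 12755 genes that reached 1 TPM in 2 or more of the 6 libraries, and p-values were adjusted by the Benjamini-Hochberg method. Among the 10 genes, 9 passed this filter and Nr4a2 did not. All log2 fold changes are on this scale, on which the change of scarce genes is understated. A comparison of 2 against 2 libraries by an exact two-sided permutation test cannot give a p-value under 0.333, and the model across all genes was therefore used.

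Promoter sequences are shown for the genes whose windows held a match to a site of CREB or NF-kappaB, the factors named above. The RefSeq promoter table (GRCm38.p6) held 7 of the 10 genes, and Egr1, Egr3 and Ier2 were not matched. The 250 bases before each start site were searched on both strands for 6 motifs. The CRE core TGACG, recognized by CREB, was found in 17.7% of all 32817 windows in the table, the AP-1 site TGANTCA in 6.75%, the EGR site GCGNGGGCG in 4.7%, the NF-kappaB site in 3.9%, the CArG box of serum response factor in 1.47% and the NBRE AAAGGTCA, bound by Nr4a proteins, in 1.34%. Nr4a1, Nr4a2 and Nr4a3 each held 4 CRE cores. At least 4 were found in 45 of the 32817 windows (0.137%), a count taken after the matches in the Nr4a genes had been seen. Nr4a1 also held an EGR site at -60 to -52 and Nr4a2 at -74 to -66, counted from the base before the start site as -1. Ier3 held 1 NF-kappaB site at -92 to -83. None of the 6 motifs was found in the windows of Egr2, Nab2 and Ier5, and no matches overlapped. Egr2 has 5 windows in the table. Only that nearest to the start of the gene in the data was searched for matches of its own. The single windows of Nr4a1 and Nab2 lie inside the bounds of these genes in the data. The bases before the outer start of these 2 genes were not searched. Capitals mark the CRE core, read as TGACG or, on the other strand, CGTCA, in the Nr4a sequences and the NF-kappaB site in Ier3. A match is a description of letters, and binding was not measured.
Nr4a1, chr15:101266596-101266845, + strand, -250 to -1: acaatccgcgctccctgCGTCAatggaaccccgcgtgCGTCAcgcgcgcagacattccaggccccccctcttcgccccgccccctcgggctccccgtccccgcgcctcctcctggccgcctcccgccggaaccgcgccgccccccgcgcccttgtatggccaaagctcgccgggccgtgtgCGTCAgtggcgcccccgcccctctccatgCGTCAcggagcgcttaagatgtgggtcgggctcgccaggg
Nr4a2, chr2:57124004-57124253, - strand, -250 to -1: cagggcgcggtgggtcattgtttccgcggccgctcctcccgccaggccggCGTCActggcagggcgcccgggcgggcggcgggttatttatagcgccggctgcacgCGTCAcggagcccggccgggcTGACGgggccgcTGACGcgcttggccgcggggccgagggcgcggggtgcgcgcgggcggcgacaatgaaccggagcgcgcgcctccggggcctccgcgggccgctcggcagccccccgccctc
Nr4a3, chr4:48045055-48045152, + strand, -250 to -153, the stretch outside exons of the gene, with 3 of its 4 CRE cores: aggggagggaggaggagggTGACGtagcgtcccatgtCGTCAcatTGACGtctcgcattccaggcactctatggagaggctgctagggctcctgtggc
Ier3, chr17:35821463-35821683, + strand, -250 to -30, the stretch outside exons of the gene: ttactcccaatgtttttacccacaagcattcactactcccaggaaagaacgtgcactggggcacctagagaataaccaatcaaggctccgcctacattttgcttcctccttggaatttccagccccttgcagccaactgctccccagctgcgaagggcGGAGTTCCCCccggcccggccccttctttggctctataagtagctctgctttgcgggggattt

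**Figure D1:**
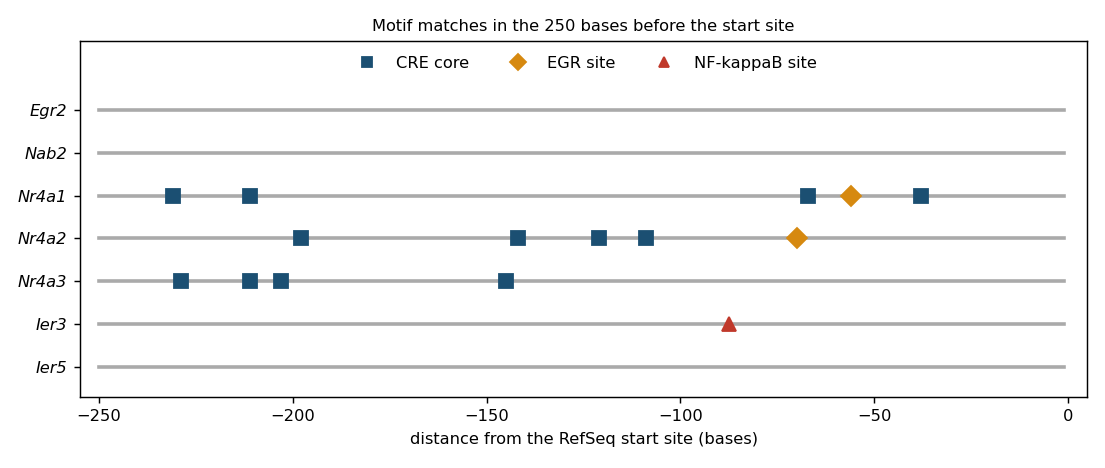
Positions of motif matches in the 250 bases before the RefSeq start site (x axis, bases from the start site) of the 7 genes with a window (rows), with symbols for CRE cores, EGR sites and NF-kappaB sites. The 3 Nr4a genes each have 4 CRE cores, and Ier3 has the only NF-kappaB site among the 7 windows.

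The levels of the 10 genes were first compared across the 3 groups. Nr4a3 and Ier3 rose with LPS. After metformin pretreatment Ier3 was at 48.2% of its mean in LPS and Nr4a3 at 71.5%, the latter a difference lost in some of the fits given below. Egr1 was at similar levels in Untr and LPS, with overlapping libraries, and rose in Met + LPS. Egr3 rose with LPS and again in Met + LPS, whereas Nab2 fell with LPS and was lowest in Met + LPS.

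**Figure D2:**
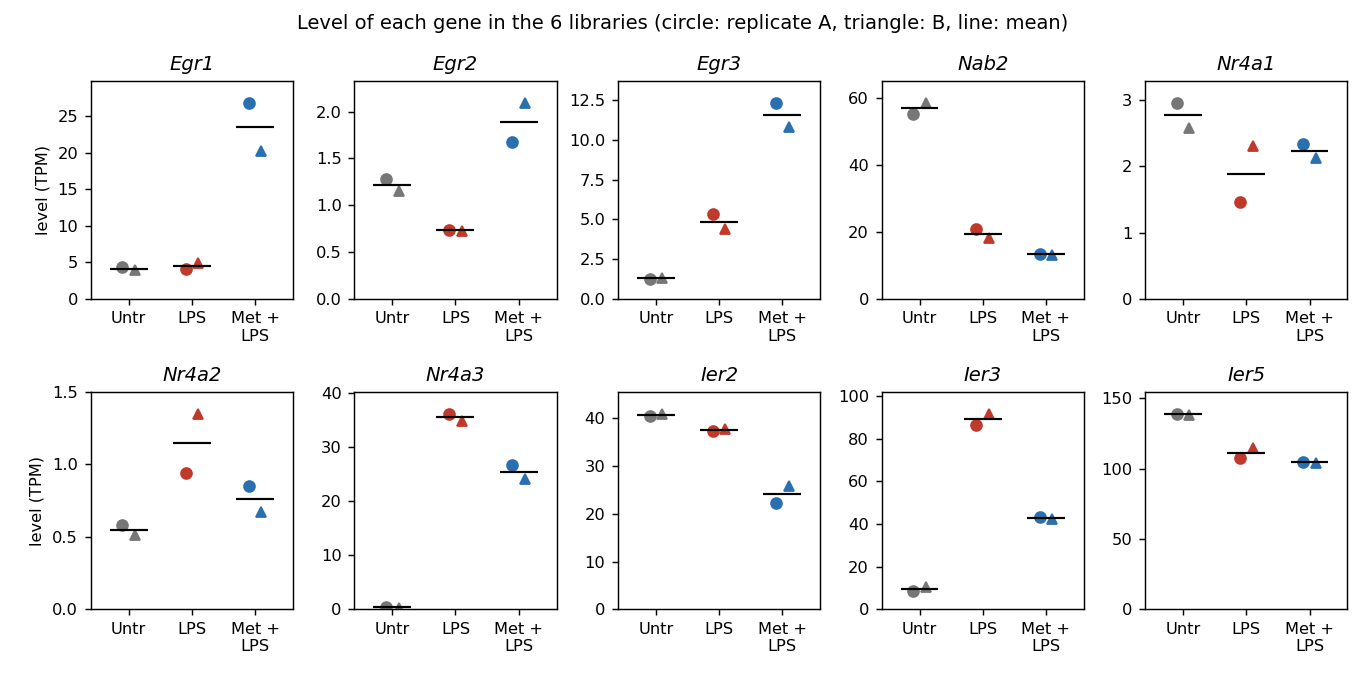
Level in TPM (y axis, from 0) of each gene in the 6 libraries, by group, with circles for replicate A, triangles for replicate B and a line at the mean. Egr1 is high in both Met + LPS libraries only (20.3 and 26.9 TPM), while Nr4a3 and Ier3 are highest in the LPS libraries.

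Egr1 (ENSMUSG00000038418, GRCm38 chromosome 18, bases 34859823 to 34864984) encodes the best known Egr factor, which is induced by growth factors and stress. It was measured at 4.34 and 3.92 TPM in Untr, 4.07 and 4.95 TPM in LPS, then 26.9 and 20.3 TPM in Met + LPS. Both Met + LPS libraries lay far above the other 4, among which the Untr and LPS libraries overlapped. The mean level was 4.13 ± 0.296 TPM in Untr and 4.51 ± 0.621 TPM in LPS (SD, n = 2), a log2 fold change of 0.10 (SE 0.14, limma adjusted p = 0.534). This value became -0.02 without LPS replicate B, 0.52 after rescaling of the libraries (limma adjusted p = 0.0172) and 0.64 with limma voom and rescaling (adjusted p = 0.00495), the last past the threshold. In Met + LPS the mean level was 23.6 ± 4.64 TPM (SD, n = 2), which was 5.23-fold that in LPS (log2 fold change 2.15, SE 0.14, limma adjusted p = 7.59e-05) and 5.71-fold that in Untr (log2 fold change 2.25, limma adjusted p = 1.09e-05). Leaving out each library in turn gave log2 fold changes of 1.96 to 2.34 for Met + LPS vs. LPS.

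Egr3 (ENSMUSG00000033730, chromosome 14, bases 70077203 to 70082614) encodes a related factor studied mainly in lymphocytes, muscle spindles and neurons. Its level was 1.25 and 1.33 TPM in Untr, 5.31 and 4.42 TPM in LPS, then 12.3 and 10.8 TPM in Met + LPS. The 3 groups did not overlap and were ordered Untr, LPS, Met + LPS. LPS raised the mean 3.76-fold, from 1.29 ± 0.0544 to 4.86 ± 0.630 TPM (SD, n = 2), with a log2 fold change of 1.35 (SE 0.11, limma adjusted p = 3.33e-05). This was under the fold cut-off of 2 on the log2 scale used for LPS vs. Untr, and 2.42, past it, when the recovered reads were tested with rescaled libraries. In Met + LPS the mean was 11.6 ± 1.09 TPM (SD, n = 2), 2.38-fold that in LPS (log2 fold change 1.10, SE 0.11, limma adjusted p = 3.56e-04) and 8.95-fold that in Untr.

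Egr2 (ENSMUSG00000037868, chromosome 10, bases 67535475 to 67542188), which encodes a factor known from hindbrain development, myelination and tolerance of lymphocytes, was scarce. It was measured at 1.28 and 1.15 TPM in Untr, 0.735 and 0.726 TPM in LPS, then 1.67 and 2.09 TPM in Met + LPS. The groups did not overlap, with LPS the lowest and Met + LPS the highest. These levels rest on few reads, which were 33 and 28 in Untr, 19 and 18 in LPS and 43 and 63 in Met + LPS. The gene passed the filter through the Untr and Met + LPS libraries, in which it was higher. The mean rose 2.58-fold from 0.730 ± 0.00614 TPM in LPS to 1.88 ± 0.298 TPM in Met + LPS (SD, n = 2), with a log2 fold change of 0.73 (SE 0.13, limma adjusted p = 0.00481), just past the fold cut-off of 0.7 used for Met + LPS vs. LPS. The call was lost in all 6 fits that left out a library (log2 fold changes 0.63 to 0.84) and without the filter (limma adjusted p = 0.0134), while limma voom on the recovered reads gave a log2 fold change of 1.34 (adjusted p = 4.02e-04). The difference between LPS and Untr was -0.35 on the log2 scale (limma adjusted p = 0.0437). Elane, at 15.2 and 17.4 TPM in Untr, 6.27 and 11.0 TPM in LPS, then 15.2 and 16.1 TPM in Met + LPS, was also lowest in the LPS libraries, and the part of such cells in the Egr2 values was not tested.

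Nab2 (ENSMUSG00000025402, chromosome 10, bases 127660918 to 127668568), the Egr corepressor, moved the other way. It was measured at 55.4 and 58.6 TPM in Untr, 20.7 and 18.2 TPM in LPS, then 13.5 and 13.2 TPM in Met + LPS, so that the groups did not overlap. The mean fell from 57.0 ± 2.27 to 19.4 ± 1.81 TPM with LPS (SD, n = 2), a log2 fold change of -1.51 (SE 0.07, limma adjusted p = 2.76e-06), which was under the fold cut-off. It was 13.3 ± 0.224 TPM in Met + LPS (SD, n = 2), with a log2 fold change of -0.51 against LPS (SE 0.07, limma adjusted p = 0.00138), also under its cut-off. Without Met + LPS replicate A or B it was -0.53 and -0.49, with an adjusted p (limma) no longer under 0.01. Limma voom on the recovered reads gave -0.54 (adjusted p = 3.19e-05), and rescaling of the libraries -0.50 (limma adjusted p = 0.00135). Against Untr the log2 fold change was -2.02 (limma adjusted p = 8.37e-07), past the cut-off, although it was -1.98 without Untr replicate B, -2.00 without Met + LPS replicate B and -1.49 after rescaling of the libraries. Of the 2941 exon bases of Nab2, 1241 (42.2%) overlap genes on the opposite strand, namely 40 of Stat6, 151 of Nemp1 and 1050 of the antisense gene Gm16229, which was listed at 0 in all 6 libraries. Whether reads were counted by strand is not given in the sources used here, and the Nab2 values are uncertain for that reason.

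The summed level of Egr1, Egr2 and Egr3 was 6.64 ± 0.331 TPM in Untr, 10.1 ± 0.0152 TPM in LPS and 37.0 ± 5.44 TPM after metformin and LPS (SD, n = 2). Egr1 made up 62.2% of the sum in Untr, 44.7% in LPS and 63.5% in Met + LPS, and Egr3 made up 19.5%, 48.1% and 31.3%. Egr3 thus took the place of Egr1 as the most abundant of the 3 on average in LPS alone, although in LPS replicate B Egr1 was above Egr3. Divided by the Nab2 level, the Egr sum was 0.124 and 0.109 in Untr, 0.488 and 0.555 in LPS and 3.03 and 2.52 in Met + LPS, with group means of 0.117 ± 0.0105, 0.522 ± 0.0477 and 2.77 ± 0.361 (SD, n = 2). That the groups were well apart in this ratio follows from the values above, and the ratio shares the uncertainty of the Nab2 values. It is a ratio of transcript levels, which says nothing of the proteins. The relatives Egr4 and Nab1 are no members of the group of 10. Egr4 reached at most 0.263 TPM, and Nab1, a second Egr corepressor, was measured at 75.5 and 75.6 TPM in Untr, 102 and 104 TPM in LPS, then 110 and 107 TPM in Met + LPS.

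Nr4a3 (ENSMUSG00000028341, chromosome 4, bases 48045153 to 48086447) encodes the receptor NOR-1. Its level was 0.461 and 0.303 TPM in Untr (21 and 13 reads), 36.2 and 34.8 TPM in LPS, then 26.6 and 24.1 TPM in Met + LPS. The 3 groups did not overlap. LPS raised the mean from 0.382 ± 0.112 to 35.5 ± 1.02 TPM (SD, n = 2), a 92.9-fold difference in TPM and a log2 fold change of 4.73 (SE 0.08, limma adjusted p = 3.65e-08). Nr4a3 passed the filter only through the LPS and Met + LPS libraries, in which it was higher. Without the filter the log2 fold change was also 4.73 (limma adjusted p = 5.18e-06). Limma voom on the recovered reads, with a smaller offset, gave 6.54. In Met + LPS the mean was 25.4 ± 1.77 TPM (SD, n = 2), 71.5% of that in LPS (log2 fold change -0.47, SE 0.08, limma adjusted p = 0.00399), under the fold cut-off of 0.7. The adjusted p (limma) was 0.046 with a pseudocount of 0.1 and 0.0183 without the filter, neither under 0.01. It was also not under 0.01 without LPS replicate A or B (log2 fold changes -0.44 and -0.50). The same held without Met + LPS replicate A or B (-0.54 and -0.40). The adjusted p (limma) was 0.0035 after rescaling of the libraries and 0.00132 with a filter of 5 TPM. Limma voom on the recovered reads gave -0.49 (adjusted p = 3.77e-07).

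Nr4a1 (ENSMUSG00000023034, chromosome 15, bases 101254269 to 101274795) encodes the receptor Nur77, which is required for a subset of monocytes. It was measured at 2.96 and 2.59 TPM in Untr, 1.46 and 2.30 TPM in LPS, then 2.34 and 2.13 TPM in Met + LPS. The LPS replicates lay farther apart than those of the other groups, and the LPS and Met + LPS libraries overlapped. The log2 fold change for LPS vs. Untr was -0.40 (SE 0.16, limma adjusted p = 0.0513). It was -0.62 without LPS replicate B (limma adjusted p = 0.00903), -0.19 without LPS replicate A and -0.04 after rescaling of the libraries. For Met + LPS vs. LPS it was 0.18 (SE 0.16, limma adjusted p = 0.397), and -0.03 without LPS replicate A. For Met + LPS vs. Untr it was -0.22 as deposited (limma adjusted p = 0.234) and 0.16 after rescaling of the libraries.

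Nr4a2 (ENSMUSG00000026826, chromosome 2, bases 57106830 to 57124003) encodes Nurr1, known for its role in dopaminergic neurons. It was measured at 0.583 and 0.516 TPM in Untr, 0.939 and 1.35 TPM in LPS, then 0.847 and 0.668 TPM in Met + LPS, from 15 to 40 reads per library. The LPS libraries were the highest and the groups did not overlap, but only 1 library reached 1 TPM and the gene was not tested. In a fit without the filter the log2 fold change was 0.46 for LPS vs. Untr (limma adjusted p = 0.0377) and -0.28 for Met + LPS vs. LPS (limma adjusted p = 0.238), neither past the threshold.

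The summed Nr4a level was 3.71 ± 0.425 TPM in Untr, 38.5 ± 0.129 TPM in LPS and 28.4 ± 2.05 TPM after metformin and LPS (SD, n = 2). Nr4a1 made up 74.9% of it in Untr and 4.89% in LPS, whereas Nr4a3 made up 10.2% and 92.1%. In Met + LPS the shares were 7.87% for Nr4a1, 2.66% for Nr4a2 and 89.5% for Nr4a3. The windows with 4 CRE cores thus belonged to a gene that LPS raised many-fold, a gene that did not pass the test and a gene too scarce to be tested.

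**Figure D3:**
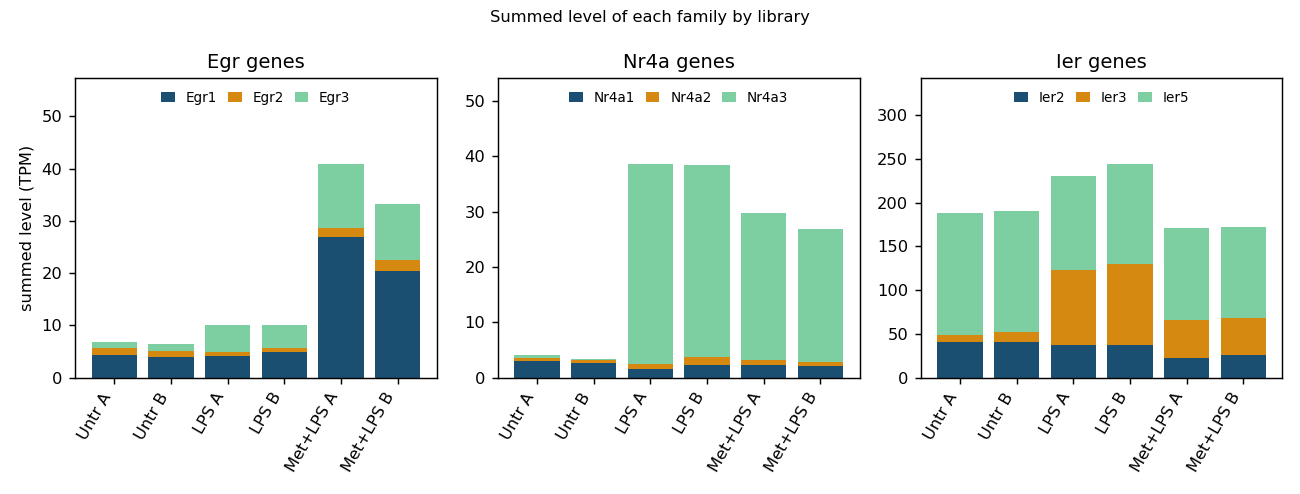
Summed level in TPM (y axis, from 0) of the Egr, Nr4a and Ier genes in each of the 6 libraries, with the bar divided by gene. Egr1 makes up most of the Egr sum in Met + LPS (63.5% on average), and Nr4a3 most of the Nr4a sum in LPS (92.1%).

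Ier3 (ENSMUSG00000003541, chromosome 17, bases 35821684 to 35822923) was measured at 8.72 and 10.6 TPM in Untr, 86.3 and 91.8 TPM in LPS, then 43.5 and 42.4 TPM in Met + LPS. Its window was the only one of the 7 searched with an NF-kappaB site, and a link of the site to its level was not tested. The groups did not overlap, and Met + LPS lay between the others. LPS raised the mean 9.21-fold from 9.67 ± 1.34 to 89.1 ± 3.91 TPM (SD, n = 2), with a log2 fold change of 3.08 (SE 0.09, limma adjusted p = 2.83e-07). In Met + LPS the mean was 42.9 ± 0.816 TPM (SD, n = 2), 48.2% of that in LPS (log2 fold change -1.04, SE 0.09, limma adjusted p = 1.76e-04). It was still above Untr, with a log2 fold change of 2.05 (limma adjusted p = 1.85e-06) that was past the cut-off in all leave-one-out fits but that without Untr replicate A (1.92).

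Ier2 (ENSMUSG00000053560, chromosome 8, bases 84661331 to 84662852), a gene of 1 exon, was already abundant in untreated cells. Its level was 40.4 and 40.9 TPM in Untr, 37.2 and 37.7 TPM in LPS, then 22.3 and 25.8 TPM in Met + LPS. The log2 fold change for LPS vs. Untr was -0.11 as deposited (SE 0.07, limma adjusted p = 0.167) and 0.40 after rescaling (limma adjusted p = 0.00221), so that its direction depends on the scaling. Met + LPS was lower than LPS, with means of 24.0 ± 2.53 and 37.5 ± 0.369 TPM (SD, n = 2) and a log2 fold change of -0.62 (SE 0.07, limma adjusted p = 6.04e-04) under the cut-off of 0.7. Without Met + LPS replicate B it was -0.73, past the cut-off.

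Ier5 (ENSMUSG00000056708, chromosome 1, bases 155096361 to 155099636), also of 1 exon, was the most abundant of the 10 genes in every library. It was measured at 139 and 138 TPM in Untr, 107 and 115 TPM in LPS, then 105 and 104 TPM in Met + LPS. LPS and Met + LPS were both below Untr. The log2 fold change for LPS vs. Untr was -0.32 as deposited (SE 0.04, limma adjusted p = 2.93e-04) and 0.20 after rescaling (limma adjusted p = 0.00475), and for Met + LPS vs. Untr it was -0.40 (limma adjusted p = 9.02e-05) and 0.13, so that the direction of both flips with the scaling. The difference between Met + LPS and LPS was -0.08 (SE 0.04, limma adjusted p = 0.131). The relative Ier5l, which is no member, fell with LPS from 12.1 ± 0.526 to 0.580 ± 0.335 TPM (SD, n = 2). Its log2 fold change was -3.07 (limma adjusted p = 5.3e-06), and it passed the filter through the Untr libraries alone, in which it was higher.

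The summed Ier level was 189 ± 1.09 TPM in Untr, 238 ± 9.45 TPM in LPS and 172 ± 1.12 TPM after metformin and LPS (SD, n = 2). Ier3 made up 5.11%, 37.5% and 25.0% of it, and Ier5 73.4%, 46.7% and 61.0%.

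Over the 10 genes, LPS vs. Untr put 2 of the 9 tested genes past both cut-offs (a log2 fold change of 2 or more in size and an adjusted p under 0.01), Nr4a3 and Ier3, both higher, where 3.72% of all 12755 tested genes were called higher and 2.37% lower. By the adjusted p alone 3 were higher, with Egr3 added, and 2 lower, Nab2 and Ier5, where the shares over all genes were 16.2% and 60.1%. After rescaling Ier2 (0.40) and Ier5 (0.20) turned to higher, both past the adjusted p, and the other calls by the adjusted p stayed as they were. The median log2 fold change was -0.11 over the 9 genes and -0.48 over all tested genes, a shift of the whole table. After rescaling the medians were 0.40 and -0.01, so that the sign over the 9 genes changed. Egr1, Ier2 and Ier5 lay above the median of all tested genes in LPS vs. Untr, although their values as deposited were near or below 0. Egr2 and Nr4a1 (-0.35 and -0.40) were above it as deposited only. They were below it with a pseudocount of 0.1 (-0.66 and -0.57, median -0.54). The same held for limma voom (-0.70 and -0.58, median -0.52) and, by little, after rescaling (-0.10 and -0.04, median -0.01).

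Met + LPS vs. LPS put 3 of the 9 higher (Egr1, Egr2 and Egr3) and 1 lower (Ier3) by both cut-offs (0.7 or more in size), where 4.19% of all tested genes were called higher and 4.09% lower. By the adjusted p alone 3 were higher and 4 lower, with Nab2, Nr4a3 and Ier2 added to Ier3 and with Egr2, Nab2 and Nr4a3 lost in some of the fits given above, where the shares over all genes were 14.5% and 18.0%. The medians were -0.08 over the 9 genes and -0.03 over all genes. No direction among the 7 genes past the adjusted p changed with the scaling. In LPS vs. Untr and in Met + LPS vs. LPS the same LPS libraries enter with opposite sign, and the values of both are therefore given side by side without a test of their relation. Nr4a3 and Ier3, the 2 genes called in LPS vs. Untr, had log2 fold changes of 4.73 and 3.08 there and of -0.47 and -1.04 in Met + LPS vs. LPS.

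**Figure D4:**
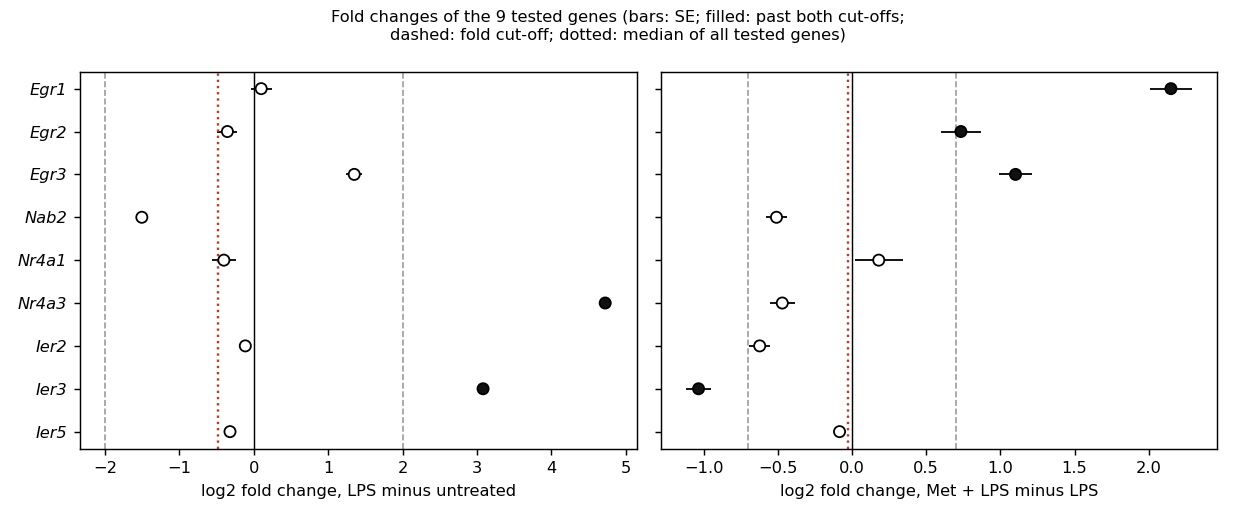
Log2 fold changes on log2(TPM + 1) (x axes) of the 9 tested genes (rows) for LPS vs. Untr on the left and Met + LPS vs. LPS on the right, with SE bars, filled points past both cut-offs, dashed lines at the fold cut-offs and a dotted line at the median of all tested genes. The 3 Egr genes lie to the right in Met + LPS vs. LPS (0.73 to 2.15) and Ier3 to the left (-1.04).

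Met + LPS vs. Untr shares its Untr libraries with LPS vs. Untr. It put 4 of the 9 genes higher (Egr1, Egr3, Nr4a3 and Ier3) and 1 lower (Nab2) by both cut-offs (2 or more in size), where 3.18% of all tested genes were called higher and 2.16% lower. By the adjusted p alone 4 were higher and 3 lower, where the shares were 16.3% and 58.8%. After rescaling Egr2 was also higher (log2 fold change 0.68), and Ier2 (-0.21) and Ier5 were no longer past the adjusted p. The median over the 9 genes was 0.38 and that over all genes -0.48, and after rescaling 0.68 and 0.00. The log2 fold change of Egr1 was 2.25 here and 0.10 in LPS vs. Untr, and that of Egr3 was 2.45 (limma adjusted p = 2.35e-06) and 1.35.

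Regulators known to act upstream of such genes were taken from a list of 18 genes of serum response factor and its partners, CREB and its coactivators, ERK and its downstream kinases. All 18 were tested and 0 passed both cut-offs in LPS vs. Untr, where 3.72% of all tested genes were called higher and 2.37% lower. By the adjusted p alone (limma) 4 were higher and 11 lower, beside 16.2% and 60.1% of all tested genes. The largest fall was that of Mkl1, a partner of serum response factor (log2 fold change -1.83). The largest rise was that of Rps6ka5 (1.46), and both are named here after their values were seen. After rescaling the median log2 fold change was 0.15 over the list and -0.01 over all tested genes. Limma voom on the recovered reads called 1 lower by both cut-offs, beside 878 of all 12750 genes in that fit. With rescaled libraries it called 1 higher, beside 949 of 12750. In Met + LPS vs. LPS only Rps6ka5, which encodes the kinase MSK1 that phosphorylates CREB and histone H3, passed both cut-offs, at 6.50 ± 0.182 against 11.5 ± 0.452 TPM (SD, n = 2) with a log2 fold change of -0.74 (SE 0.07, limma adjusted p = 2.82e-04). The shares over all tested genes there were 4.19% higher and 4.09% lower. With the adjusted p alone 5 were higher and 5 lower, beside 14.5% and 18.0% of all genes. The medians over the list were -0.34 and -0.07, beside -0.48 and -0.03 over all genes. In Met + LPS vs. Untr 0 passed both cut-offs, beside 3.18% and 2.16% of all genes. By the adjusted p alone 3 were higher and 9 lower, beside 16.3% and 58.8%. The medians were -0.24 over the list and -0.48 over all genes, and 0.26 and 0.00 after rescaling.

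Other immediate-early genes were taken from a list of 22, of which 19 were tested. LPS vs. Untr put 9 higher and 1 lower by both cut-offs, beside 3.72% and 2.37% of all tested genes. The median log2 fold change was 0.90, and it was 1.26 after rescaling, 1.76 with limma voom and 2.26 with limma voom and rescaling. The largest increase was that of Dusp2, a phosphatase that inactivates MAP kinases, from 5.75 ± 0.0449 to 503 ± 55.2 TPM (SD, n = 2), a log2 fold change of 6.22 (limma adjusted p = 6.8e-09). The 1 lower gene was Fos, an AP-1 subunit, which fell from 58.1 ± 2.32 to 8.38 ± 0.234 TPM (SD, n = 2), a log2 fold change of -2.65 (limma adjusted p = 7.75e-08). With the adjusted p alone (limma) 13 were higher and 6 lower, beside 16.2% and 60.1% of all tested genes.

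In Met + LPS vs. LPS 5 of the 19 genes were higher by both cut-offs and 1 lower, beside 4.19% and 4.09% of all tested genes, with a median of 0.21. The 5 were Fos, Myc, Dusp5, Klf4 and Gem, named after their values were seen. The largest increase was that of Klf4, a zinc finger factor of monocyte differentiation, from 6.30 ± 0.374 to 22.1 ± 2.23 TPM (SD, n = 2), a log2 fold change of 1.66 (limma adjusted p = 3.23e-05), less than that of Egr1 (2.15). The 1 lower gene was Dusp2, at 238 ± 3.97 TPM (SD, n = 2) with a log2 fold change of -1.07 (limma adjusted p = 7.32e-05), close to that of Ier3 (-1.04). With the adjusted p alone (limma) 8 were higher and 4 lower in Met + LPS vs. LPS, beside 14.5% and 18.0%. In Met + LPS vs. Untr 7 were higher and 0 lower by both cut-offs, beside 3.18% and 2.16% of all tested genes, with a median of 1.15. The adjusted p alone (limma) put 14 higher and 5 lower, beside 16.3% and 58.8%. The largest increase there was that of Csrnp1, a nuclear factor, at 368 ± 23.3 against 6.01 ± 0.364 TPM (SD, n = 2), with a log2 fold change of 5.72 (limma adjusted p = 1.48e-08).

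**Figure D5:**
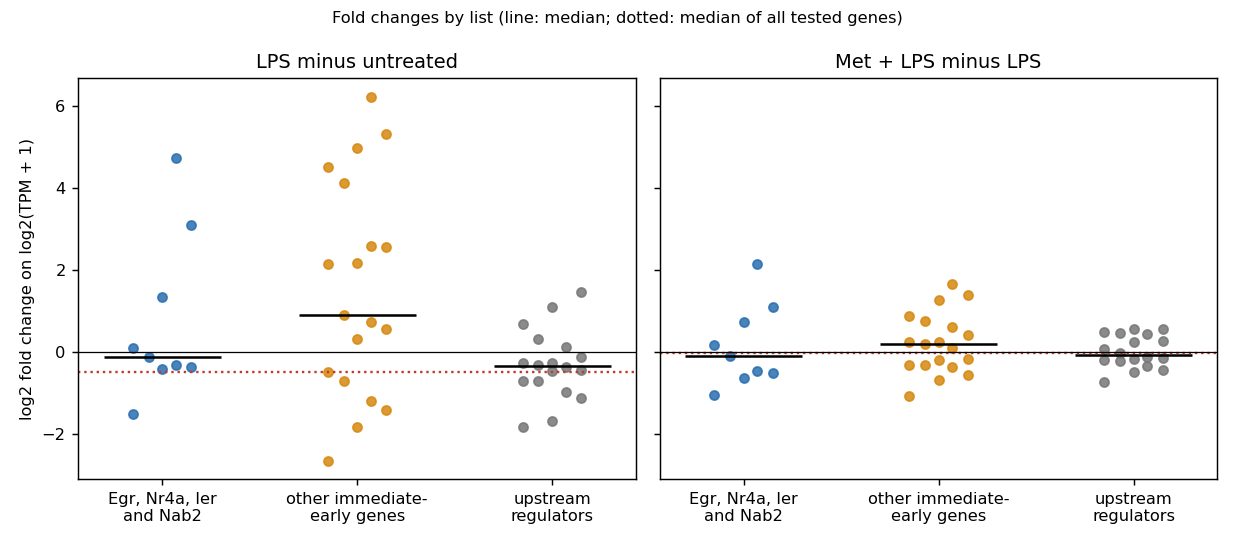
Log2 fold changes on log2(TPM + 1) (y axis) of the 9 tested members, the 19 tested other immediate-early genes and the 18 upstream regulators, for LPS vs. Untr on the left and Met + LPS vs. LPS on the right, with 1 point per gene, a line at the median of each list and a dotted line at the median of all tested genes. The medians in LPS vs. Untr are -0.11, 0.90 and -0.34, and in Met + LPS vs. LPS -0.08, 0.21 and -0.07.

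Genes with the most similar pattern were sought for the most abundant member of each family, as the Euclidean distance over the 3 group means of log2(TPM + 1), each gene centered on its mean, among 7469 genes. Over only 3 group means many genes lie close, and the distances are a description. For Egr1 they were Mthfd2 (distance 0.239), Slc7a5 (0.250) and Asns (0.256). Mthfd2, a mitochondrial folate enzyme, had means of 51.2, 55.1 and 202 TPM in Untr, LPS and Met + LPS. Slc7a5, an amino acid transporter, had 12.1, 15.8 and 58.1 TPM, and Asns, asparagine synthetase, 51.3, 55.2 and 308.5 TPM. That each of the 3 was highest in Met + LPS, as Egr1 was, follows from how they were chosen. For Nr4a3 they were Slc7a2 (0.022), Noct (0.054) and Pde4b (0.072). Slc7a2, a transporter of cationic amino acids, had means of 3.06, 103.9 and 74.8 TPM, and Pde4b, a phosphodiesterase that degrades cAMP, 1.97, 72.3 and 52.4 TPM. For Ier5 they were Ankle2 (0.0090), Abcb4 (0.0101) and Pgrmc1 (0.0143), which varied little between groups, with means for Pgrmc1 of 141, 113.7 and 107.7 TPM.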

How the data were processed

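RNA-seq was analysed for 6 libraries of BMDMs in 3 groups of 2. The authors enriched poly-A RNA, prepared libraries with a TruSeq kit, and aligned single-end reads to GRCm38 with STAR. The submitters' processing notes name STAR 2.6.1d, SAMtools 1.9, featureCounts and Subread 1.6.3. The values were deposited as TPM per gene, and how counts became TPM is not given in the sources used here. Of the 54532 genes, 54495 matched GENCODE exon lengths. TPM times exon length was a whole multiple of a library's step, within 0.01 reads, for 96.0% to 96.2% of values above 0, and was taken as reads.

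Genes that reached 1 TPM in 2 or more of 6 libraries entered limma 3.58.1 under R 4.3.3 (lmFit, eBayes with trend, log2(TPM + 1), a common fit with 3 residual degrees of freedom, Benjamini-Hochberg adjustment over 12755 genes). Cut-offs were an adjusted p of 0.01 and a log2 fold change of 2 in size, or 0.7 for Met + LPS vs. LPS. Python 3.11.15 made the tables. The script was tested on simulated data. The members, lists and tests were chosen with earlier results of these data known. All members are named, and from a list the largest increase and decrease past the cut-offs, with exceptions stated. Limma voom on the recovered reads was added after seeing the data. The other alternatives were a pseudocount of 0.1, other filters, median-ratio rescaling, a fit of the compared groups, a replicate block, no trend, other cut-offs and leaving out each library.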

Additional observations from a re-analysis of the deposited data

How the results depend on the processing

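With 2 libraries per group, genes of few reads such as Egr2 and Nr4a2 are limited by depth and the spread is pooled over genes. The counts of all tested genes past the cut-offs were 776 for LPS vs. Untr, 1056 for Met + LPS vs. LPS and 682 for Met + LPS vs. Untr. With a pseudocount of 0.1 the first and last became 1512 and 1457, with voom 1596 and 1564, and with voom and median-ratio scaling 1378 and 1299. A fold cut-off of 1 gave 3556, 455 and 3714, and no fold cut-off gave 9734, 4156 and 9576. Among the members, the count for LPS vs. Untr went from 2 to 4 with a cut-off of 1 and 5 with none, and that for Met + LPS vs. LPS from 4 to 7 with none. The changed fold cut-offs shift the counts by construction, and the cause of the other shifts was not tested.

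Median-ratio rescaling moved the split of calls in LPS vs. Untr from 474 higher and 302 lower to 663 and 129, and in Met + LPS vs. Untr from 406 and 276 to 571 and 98. It reversed Ier2 (0.40, or 0.41 with voom) and Ier5 (0.20 in both) in LPS vs. Untr, and Nr4a1 (0.16, or 0.22 with voom) and Ier5 (0.13 in both) in Met + LPS vs. Untr. Leaving out each library in turn gave -0.016 to 0.21 for Egr1 in LPS vs. Untr and -0.033 to 0.39 for Nr4a1 in Met + LPS vs. LPS. The labels do not say what libraries of the same letter share. The differences between A and B correlated across genes at r = -0.00365 (Untr and LPS), 0.0284 (Untr and Met + LPS) and 0.00624 (LPS and Met + LPS). With the replicate block, 3 members were called in Met + LPS vs. LPS, Egr2 being lost (0.73, limma adjusted p = 0.01), and 1044 of all genes. No other member's call changed with the block. Egr2 was also lost in a fit of the compared groups only (limma adjusted p = 0.0111).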
